A study of Mus musculus with 21 samples.

Results

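The Rab genes encode small GTPases that mark the membranes of a cell and direct the traffic of vesicles between them. All rows of the deposited count table whose gene symbol is Rab followed by a number, with or without a closing letter or digit, were taken as members. This gave 57 genes of the 23337 in the table. The table gives bulk RNA sequencing counts for B cells of C57BL/6 mice aged 8 to 12 weeks. They were sorted from 3 tissues, namely spleen, mesenteric lymph node (mLN) and Peyer's patch (PP, the gut's own lymphoid tissue). The labels name the cells HEL neg, HEL pos or BCL2 HEL pos, and expand neither HEL nor BCL2. Per tissue there is 1 HEL neg library (a pool), 3 HEL pos libraries (a pool, 392 and 399) and 3 BCL2 HEL pos libraries (922, 926 and 950), so there are 9 groups and 21 libraries. The labels do not say how many mice went into a pool, nor whether a numbered library is 1 mouse. The p-values therefore measure only how far these libraries spread, part of which may be technical, and how BCL2 was introduced is not given in the sources used here.

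A Rab protein is switched on when an exchange factor loads it with GTP, and switched off when a GTPase-activating protein makes it hydrolyse that GTP. In its active form it recruits effectors that move, tether or fuse vesicles, and GDP dissociation inhibitors return the inactive, prenylated form to the cytosol. B cells use this machinery to take up antigen bound by their receptor, to carry it to the compartments where peptides are loaded on MHC class II, and to send receptors and secreted proteins to the surface.

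Sequences upstream of the start sites are shown for 4 genes chosen after their levels were seen: Rab20 and Rab3a, which differed most between tissues among genes with a printable window, and Rab8a and Rab8b, close relatives called in opposite directions between mLN and spleen HEL pos cells. The RefSeq promoter table (GRCm38.p6) held 59 windows for 47 of the 57 genes, and Rab30, Rab37 and Rab44 were not among them. Each sequence below runs 5′ to 3′ on the strand of the gene and stops at the first base of the gene in RefSeq or in GENCODE, whichever comes first. Capitals mark the GC box GGGCGG, bound by Sp1 and related factors, and the CCAAT box CCAAT, bound by NF-Y, on either strand. These 2 motifs were chosen after the 4 sequences had been read, so their presence there is a description only.
Rab20 (chr8:11478711-11478890, minus strand): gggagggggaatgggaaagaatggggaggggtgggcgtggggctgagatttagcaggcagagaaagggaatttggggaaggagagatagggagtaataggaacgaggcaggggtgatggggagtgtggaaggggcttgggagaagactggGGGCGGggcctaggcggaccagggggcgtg
Rab3a (chr8:70754453-70754678, plus strand): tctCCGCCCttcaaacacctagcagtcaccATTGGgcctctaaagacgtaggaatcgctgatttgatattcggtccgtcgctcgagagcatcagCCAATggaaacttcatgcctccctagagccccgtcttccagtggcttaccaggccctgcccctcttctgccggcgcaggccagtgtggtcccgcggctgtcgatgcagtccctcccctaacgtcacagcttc
Rab8a (chr8:72160950-72161199, plus strand): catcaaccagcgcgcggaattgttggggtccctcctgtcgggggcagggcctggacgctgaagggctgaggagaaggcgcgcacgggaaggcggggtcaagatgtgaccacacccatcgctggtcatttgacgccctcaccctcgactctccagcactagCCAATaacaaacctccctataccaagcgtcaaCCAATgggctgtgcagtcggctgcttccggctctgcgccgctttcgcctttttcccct
Rab8b (chr9:66919706-66919955, minus strand): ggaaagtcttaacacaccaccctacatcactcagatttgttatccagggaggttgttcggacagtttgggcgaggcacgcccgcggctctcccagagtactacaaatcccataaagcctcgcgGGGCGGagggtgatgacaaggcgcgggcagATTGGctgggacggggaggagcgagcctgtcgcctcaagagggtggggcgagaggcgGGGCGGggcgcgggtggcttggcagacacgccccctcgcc
The Rab8a window holds CCAAT boxes and no GC box, and that of Rab8b holds both.

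Over full windows of 250 bases before the RefSeq start, the GC box was in 39 of the 59 Rab windows (66.1%), against 32.7% of all 32851 windows in the table. The CCAAT box was in 24 Rab windows (40.7%, against 33.8% of all), and the E-box CACGTG, bound by MYC and by MITF family factors, in 5 (8.47%, against 6.02%). The E-box windows belong to Rab20, Rab21, Rab23, Rab27a and Rab5a. That of Rab20 lies in a stretch that GENCODE counts as part of the gene and that is not printed above. The Egr motif GCGTGGGCG was in 0 Rab windows and 0.536% of all, and the NR4A motif AAAGGTCA in 0 and 1.34%. The NF-kB motif was in 2 windows (3.39%, against 3.9% of all), those of Rab15 and Rab28. Both strands were searched, the Egr motif and the GC box can share bases, and a match is a run of letters and not a site shown to be bound. The GC box and the CCAAT box were chosen after some of these Rab windows had been read. The windows of all genes were not matched to the Rab windows for GC content or expression, and no share was tested.

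Library totals ran from 5475131 to 11340876 counts, and a count of 3 in a library corresponds to 0.261 to 0.526 CPM (the gene's share of the TMM-adjusted library total as parts in 1e6, the unit of all levels below). This limit covers counting error only. The B cell genes Cd79a and Cd79b, of the antigen receptor, and Ms4a1 were abundant in every library, at 4010 to 7940, 2010 to 5470 and 1440 to 4720 CPM. In HEL pos cells they fell against spleen by 0.83, 1.25 and 1.5 on the log2 scale in mLN and by 0.62, 1.0 and 1.22 in PP (edgeR adjusted p at most 0.0016), and their part in the Rab differences was not tested. Bcl2 stood at 134 to 181 CPM in BCL2 HEL pos libraries and 49.8 to 100 CPM in the others. The PP libraries also held transcripts of gut epithelium. The sum of 13 epithelial markers was 1160 CPM in PP HEL neg cells, 641, 234 and 1060 CPM in the PP HEL pos libraries Pool, 392 and 399, and 16.7, 95.2 and 137 CPM in the PP BCL2 HEL pos libraries 922, 926 and 950. The spleen and mLN libraries had 5.23 to 37.9 CPM of them. Granulocyte markers summed to 48.1 to 192 CPM in the spleen HEL pos libraries and 60.3 CPM in the spleen HEL neg pool, against at most 1.03 CPM elsewhere. Erythroid and platelet markers summed to 35.5 to 87.9 CPM in the spleen HEL pos libraries and 0 to 49.9 CPM in the others. The part of these cells in the Rab differences was not tested. Olfactory and vomeronasal receptor transcripts, which B cells are not known for, reached 843 and 725 CPM in the PP HEL pos libraries Pool and 399, 501 CPM in PP HEL neg cells and 482 CPM in the spleen HEL pos library 399, against 54 to 242 CPM elsewhere. In all tissues, the HEL pos libraries 392 and 399 had at most 0.877 CPM of Y-linked transcripts, where all other libraries had 95.6 to 163 CPM, so the HEL pos and BCL2 HEL pos groups also differ in this respect. In bulk samples, fewer cells of a type and less RNA per cell cannot be told apart.

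The Rab genes together took 2328 to 2884 CPM of each library. Of the 57 genes, 10 averaged at least 100 CPM over the 9 groups, 26 lay between 10 and 100 CPM, 4 between 1 and 10 CPM and 17 under 1 CPM. The filter on low counts kept 42 genes for the tests among HEL pos and BCL2 HEL pos cells. The 15 left out were Rab13, Rab15, Rab17, Rab25, Rab27b, Rab33a, Rab34, Rab36, Rab38, Rab39b, Rab3b, Rab3c, Rab40b, Rab4a and Rab9b. Rab44 passed only through the PP HEL pos libraries, and Rab26 through 3 libraries. The highest of the 6 group means was less than 2-fold the lowest for 31 of 42 tested Rab genes, and less than 1.5-fold for 17. The same shares were not computed over all genes, so these counts cannot be read as a trait of the Rab genes.

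Per kilobase of exon, which is the scale on which genes can be compared, the highest levels belonged to Rab4b, Rab1b, Rab24, Rab14, Rab11a and Rab1. Rab4b, which returns receptors from early endosomes to the surface, averaged 90.9 CPM per kilobase, with 64.4 to 116 over the 21 libraries. Its sister gene Rab4a supplied at most 1.78% of the counts of the pair in any library. Rab1b and Rab1 (now Rab1a), which carry vesicles from the endoplasmic reticulum to the Golgi, averaged 85.1 and 54.4 CPM per kilobase. Rab1b spanned 66.3 to 108 and Rab1 42.9 to 67.2, so these ranges met only at their edges. Rab14, of traffic between Golgi and endosomes, stood at 56.7 (45.8 to 74) and Rab11a, of recycling endosomes, at 54.7 (40.1 to 64.1), and their ranges largely coincided. Rab24, linked to autophagy, averaged 63.9 CPM per kilobase, but 66.4% of its exon bases overlap those of Prelid1, so its counts are uncertain. Rab8a (53.6), Rab5c (45.7), Rab10 (42.7) and Rab11b, also above 40, followed.

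**Figure D1:**
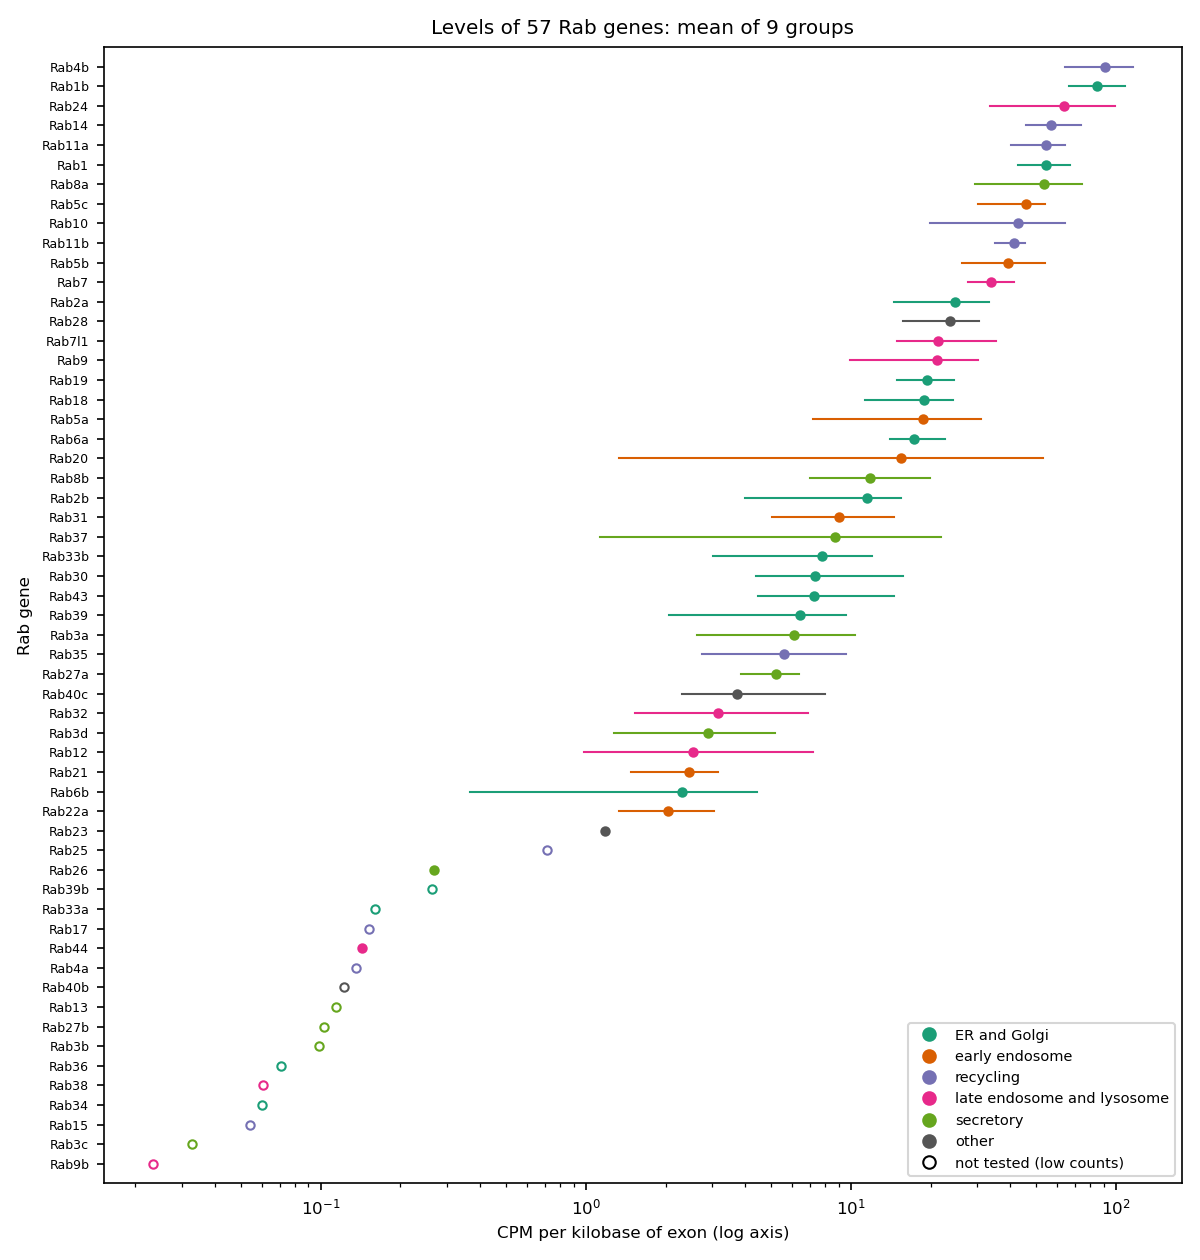
Levels of the 57 Rab genes as CPM per kilobase of exon on a log axis, 1 row a gene, coloured by role. Points are means of the 9 group means, lines span the lowest to the highest of the 21 libraries for genes counted in all of them, and open points are the 15 genes not tested for low counts; Rab4b is highest at 90.9, and the lines of Rab20, Rab37 and Rab6b are among the longest.

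Calls between groups were made with edgeR's quasi-likelihood test on 11419 genes, at a Benjamini-Hochberg adjusted p under 0.05 over all of them. Comparisons within a cell kind share libraries. In HEL pos cells, 2 of 42 Rab genes were higher and 3 lower in PP than in spleen (background over all genes 15.4%, with 7.94% higher and 7.43% lower). In mLN, 4 were higher and 6 lower than in spleen (24.5% of all genes, 12.9% and 11.5% by direction). Between PP and mLN, 2 were higher and 1 lower in PP (8.86% of all genes, 5.34% and 3.52% by direction). In BCL2 HEL pos cells, 2 were higher and 0 lower in PP than in spleen (7.34% of all genes, 4.81% and 2.53% by direction). In mLN, 1 was higher and 2 were lower than in spleen (10% of all genes, 5.77% and 4.23% by direction), and in PP 2 were higher and 0 lower than in mLN (1.16%, 0.806% and 0.35%). Between BCL2 HEL pos and HEL pos cells, 2 were higher and 1 lower in spleen (9.37% of all genes, 4.55% and 4.82% by direction) and 2 higher and 0 lower in mLN (11.7%, 5.78% and 5.9%). In PP 6 were higher and 2 lower (10.1%, 5.33% and 4.74%), or 2 in all when PP HEL pos 399 and Pool were left out. With counts this small most comparisons stand near their background, and none was tested for standing apart from it. The median log2 difference of the tested Rab genes was -0.075, -0.104 and 0.01 in the HEL pos tissue comparisons, in the order given, against 0.023, -0.01 and -0.012 for all genes. It was -0.102, -0.099 and 0.015 in BCL2 HEL pos cells, against -0.016, -0.021 and 0. Between BCL2 HEL pos and HEL pos cells it was 0.137, 0.056 and 0.139 in spleen, mLN and PP, against 0, -0.009 and -0.015. In total, 16 Rab genes were called in at least 1 of these 9 comparisons, and the same share over all genes was not computed. Rab44 is among these 16, as 1 of the higher genes of PP against spleen HEL pos cells. It is also 1 of the lower genes of BCL2 HEL pos against HEL pos cells of PP. But it passed the filter only through the PP HEL pos libraries and had to differ.

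**Figure D2:**
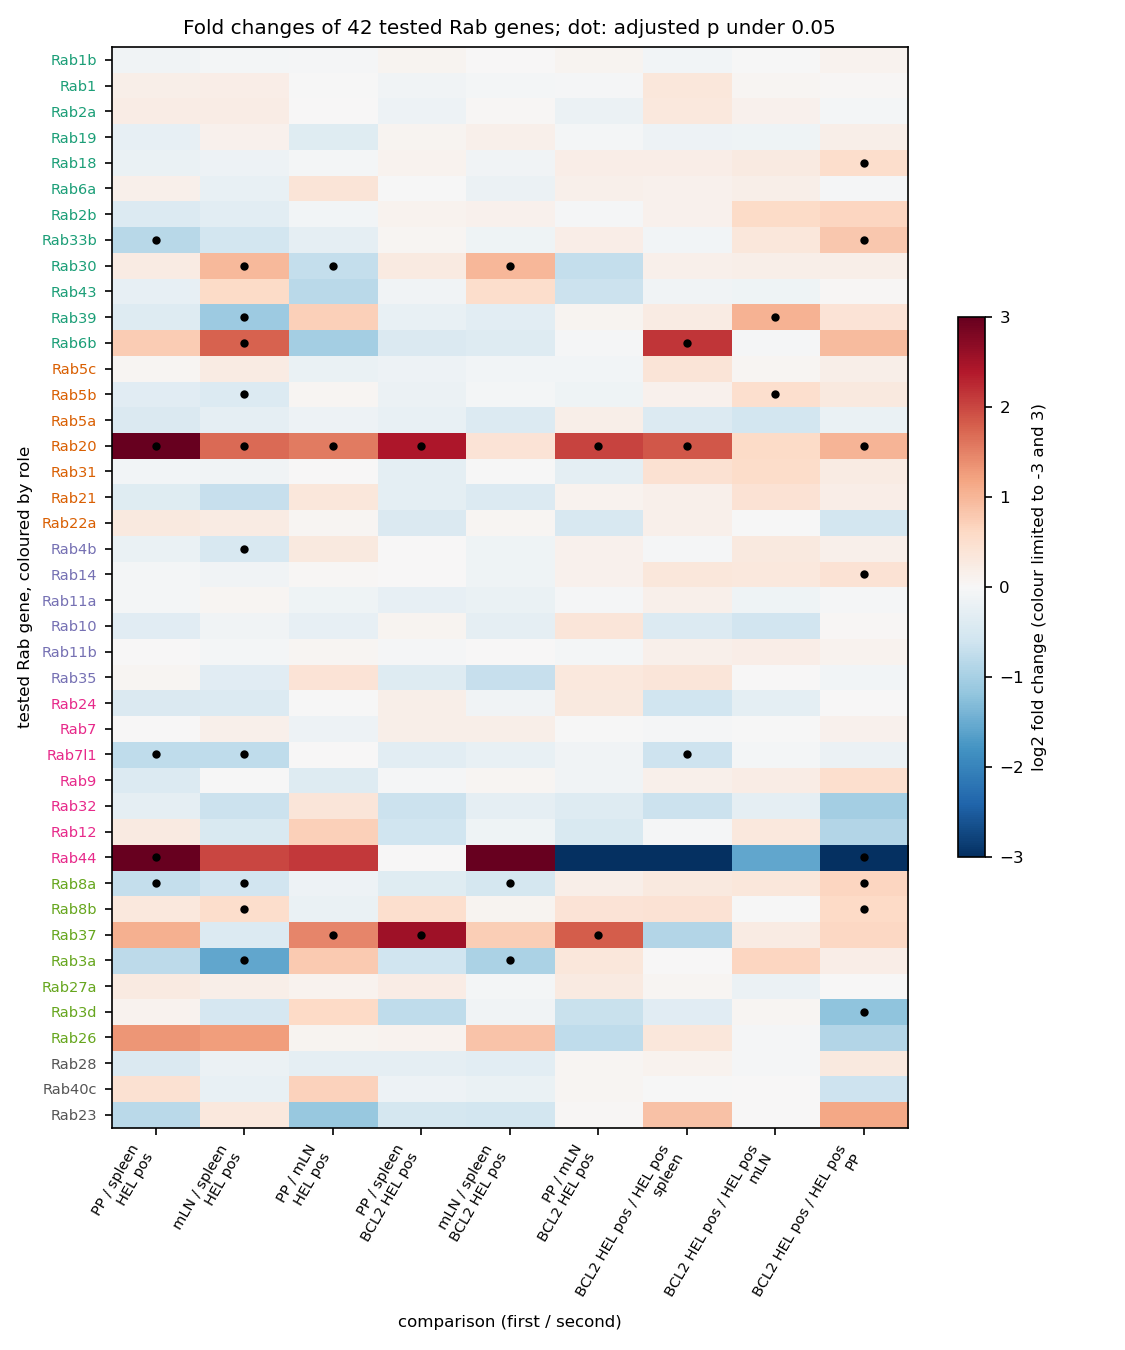
Log2 fold changes of the 42 tested Rab genes (rows, names coloured by role and ordered by level within a role) in 9 comparisons (columns, first group over second). Red is higher in the first group, colours stop at -3 and 3, and black dots mark an edgeR adjusted p under 0.05; Rab20 carries 7 dots and most rows are pale. Values for Rab44 in BCL2 HEL pos cells rest on 0 to 4 counts a group.

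Rab20 (chr8:11453518-11478710 in mm10, minus strand), a GTPase of endosomes and phagosomes, was higher in PP than in the other tissues in every kind of cell. In HEL pos cells of spleen it stood at 5.15, 1.84 and 2.23 CPM in the libraries Pool, 392 and 399. In mLN it stood at 14.5, 7.94 and 8.51 CPM, and in PP at 37, 27.9 and 27.9 CPM. The 3 tissues did not overlap: every PP library was above every mLN library, and every mLN library above every spleen library. The log2 difference was 3.27 ± 0.33 (SE) between PP and spleen, a 9.61-fold difference (adjusted p = 2.63e-06, edgeR). It was 1.70 ± 0.34 between mLN and spleen (adjusted p = 0.000714) and 1.56 ± 0.29 between PP and mLN (adjusted p = 0.00255). With only the PP library 392 kept, it was 3.10 between PP and spleen (adjusted p = 0.000197) and 1.42 between PP and mLN (adjusted p = 0.0609).

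BCL2 HEL pos cells had more Rab20 than HEL pos cells in spleen and in PP. Their spleen libraries 922, 926 and 950 had 15.7, 8.18 and 11 CPM, those of mLN 14.9, 13.9 and 17.6 CPM and those of PP 61.3, 53.6 and 74 CPM. PP lay above both other tissues without overlap, while spleen and mLN overlapped. The log2 difference was 2.42 ± 0.30 between PP and spleen (adjusted p = 2.21e-05) and 2.02 ± 0.29 between PP and mLN (adjusted p = 0.0017). Against HEL pos cells it was 1.87 ± 0.34 in spleen (adjusted p = 0.00111) and 1.03 ± 0.28 in PP (adjusted p = 0.0223), with no overlap in either tissue. The PP call was lost when any of the PP libraries HEL pos 392, HEL pos 399, BCL2 HEL pos 922 or BCL2 HEL pos 950 was left out (adjusted p = 0.0501 to 0.0927). HEL neg pools gave 8.87 CPM in spleen, 13.9 in mLN and 36.2 in PP, in the same order of tissues, with 1 library each and no test.

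Over the 9 groups the mean of Rab20 was highest in PP BCL2 HEL pos cells, at 62.9 ± 10.3 CPM (SD, n = 3), and ran through 36.2 in PP HEL neg and 30.9 ± 5.27 in PP HEL pos cells to 3.08 ± 1.81 CPM in spleen HEL pos cells. The 5 groups between, from 15.5 ± 1.9 CPM in mLN BCL2 HEL pos to 8.87 CPM in spleen HEL neg cells, overlapped their neighbours in that order. Epithelial transcripts moved with the tissue too, and their part in the result was not tested. The PP library BCL2 HEL pos 922, with 16.7 CPM of epithelial markers, lay within the range of spleen and mLN libraries for them and had 61.3 CPM of Rab20. The 3 PP BCL2 HEL pos libraries had less of these markers and more Rab20 than every PP HEL pos library. Macrophage and dendritic cell markers summed to 15.6 to 37.9 CPM in PP libraries and 9.89 to 57.4 CPM in the others.

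**Figure D3:**
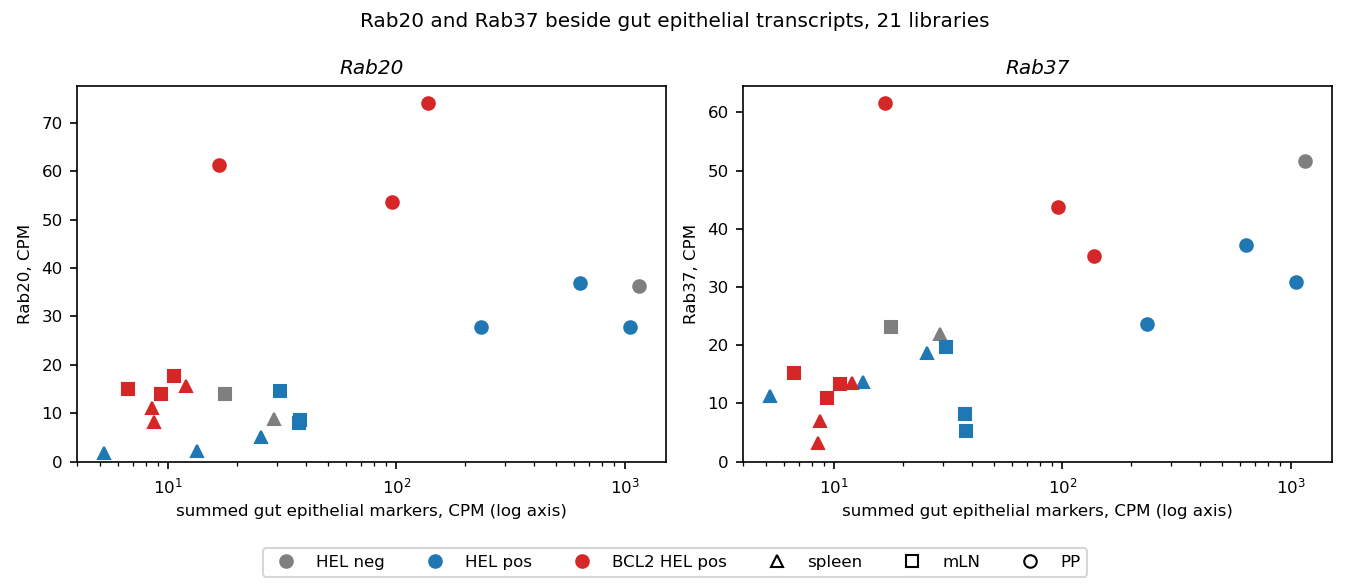
Rab20 (left) and Rab37 (right) in CPM against the summed CPM of 13 gut epithelial markers on a log axis, 1 point a library, 21 in all; colour gives the kind of cell and shape the tissue. The PP BCL2 HEL pos library at 16.7 CPM of epithelial markers has 61.3 CPM of Rab20 and 61.6 CPM of Rab37, above all spleen and mLN libraries.

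Among the other genes of early endosomes only Rab5b was called in the 9 comparisons. Rab5b, which works in the fusion of early endosomes, fell in mLN HEL pos cells by 0.42 ± 0.15 on the log2 scale against spleen (adjusted p = 0.0455). It was higher in mLN BCL2 HEL pos than in mLN HEL pos cells by 0.50 ± 0.15 (adjusted p = 0.0312). Each of these calls was lost in 5 of 6 fits that left out 1 library, with an adjusted p of up to 0.163 and 0.156. Rab5a, Rab5c, Rab21, Rab22a and Rab31 were called in none of the 9 comparisons. Rab5a varied between libraries of 1 group: in HEL pos cells the pool was the highest of 3 in every tissue, with 73.7 CPM in spleen, 69.4 in mLN and 64 in PP against 17.1 to 49.2 CPM in 392 and 399. Rab10, of exocytosis and recycling, did the same, with 207 to 221 CPM in the pools and 70 to 157 CPM in 392 and 399.

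Among secretory Rab genes, Rab37 (chr11:115091431-115162236), a GTPase of secretory granules, was higher in PP. The spleen, mLN and PP libraries of BCL2 HEL pos cells had 13.5, 7.03 and 3.18 CPM, 15.3, 10.9 and 13.4 CPM, and 61.6, 43.8 and 35.4 CPM. Every PP library was above all 6 others, by 2.55 ± 0.43 on the log2 scale against spleen (adjusted p = 0.00065) and 1.82 ± 0.41 against mLN (adjusted p = 0.0307). The mLN call was lost in 5 of 6 fits without 1 library, all but that without PP 950 (adjusted p = 0.071 to 0.217).

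In HEL pos cells the libraries Pool, 392 and 399 had 18.7, 11.2 and 13.7 CPM of Rab37 in spleen, 19.6, 8.13 and 5.19 CPM in mLN, and 37.2, 23.7 and 30.9 CPM in PP. PP again lay above both tissues without overlap. The difference of PP was 1.46 ± 0.41 against mLN (adjusted p = 0.0314) and 1.06 ± 0.41 against spleen, where it missed the threshold (adjusted p = 0.0847). That difference was called without the low-count filter (adjusted p = 0.00118) and in a fit of only the compared libraries (adjusted p = 0.0468). It was also called with the library number (Pool, 392 or 399) as a block (adjusted p = 0.00926). The other 10 of 13 alternatives did not call the difference from spleen, among them DESeq2 and every fit without 1 library (edgeR adjusted p up to 0.233). Without the pooled HEL pos libraries its edgeR adjusted p was 0.0929. Leaving out PP Pool, PP 399, mLN 392 or mLN 399 ended the call against mLN (adjusted p = 0.0645 to 0.139). Without both PP Pool and 399, which carry the receptor transcripts, it was 1.09 (adjusted p = 0.36) and the difference from spleen 0.68 (adjusted p = 0.53). In HEL neg pools of spleen, mLN and PP it stood at 22, 23.2 and 51.6 CPM.

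Rab8a and Rab8b, closely related GTPases that carry vesicles from the Golgi to the plasma membrane and the cilium, moved apart. Rab8a stood at 252, 239 and 296 CPM in the spleen HEL pos libraries Pool, 392 and 399, at 187, 184 and 154 CPM in mLN and at 151, 198 and 134 CPM in PP, with spleen above both. It fell by 0.56 ± 0.14 in mLN (adjusted p = 0.00452) and by 0.71 ± 0.14 in PP (adjusted p = 0.00141, or 0.188 without PP Pool and 399). In BCL2 HEL pos cells it fell by 0.52 ± 0.14 in mLN against spleen (adjusted p = 0.0183), a call lost in 5 of 6 fits without 1 library, all but that without spleen 950 (adjusted p up to 0.0714).

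Rab8b was higher in mLN than in spleen HEL pos cells by 0.53 ± 0.19 (adjusted p = 0.0463), though the groups overlapped, with 46.7 to 74.3 against 33.2 to 48.7 CPM. That call was lost in 4 of 6 fits without 1 library (adjusted p up to 0.324). Rab8a supplied 86.3% ± 3.2 (SD, n = 3) of the counts of the pair in spleen HEL pos cells, 74.7% ± 6.48 in mLN and 75.6% ± 1.43 in PP. In BCL2 HEL pos cells the share was 85.2% ± 1, 79% ± 1.68 and 76% ± 5.84. In both kinds of cell the spleen libraries did not overlap the others. The HEL neg pools had 78.8% in spleen, 86.8% in mLN and 84.8% in PP, with spleen lowest. These shares were not tested, and how the counting treated reads that match both genes is not given in the sources used here.

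Both Rab8 genes were higher in PP BCL2 HEL pos than in PP HEL pos cells. Rab8a rose by 0.64 ± 0.14 (adjusted p = 0.00591) and Rab8b by 0.60 ± 0.19 (adjusted p = 0.0459), without overlap. Without the PP HEL pos libraries Pool and 399 they stood at 0.35 (adjusted p = 0.313) and 0.40 (adjusted p = 0.456). Leaving out 1 library kept the call of Rab8a in 6 of 6 fits and ended that of Rab8b in 4, without PP Pool, PP 399, PP 926 or PP 950. In a fit of only the compared libraries neither gene was called (adjusted p = 0.0899 and 0.154).

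Rab3a, of regulated exocytosis and best known from synapses, was lower in mLN. The HEL pos libraries Pool, 392 and 399 had 15.2, 18.6 and 12.4 CPM in spleen, 4.87, 4.7 and 5.72 CPM in mLN, and 10, 9.21 and 7.71 CPM in PP. No mLN library reached the lowest spleen library, and the difference was -1.57 ± 0.28 (adjusted p = 0.000287). The fall was also called in BCL2 HEL pos cells, where spleen had 17.8, 13.5 and 15 CPM and mLN 7.11, 9.7 and 7.41 CPM (-0.94 ± 0.28, adjusted p = 0.0326). There it was lost whichever of the 6 libraries was left out (adjusted p up to 0.129). Rab3d, of secretory granules, was lower in PP BCL2 HEL pos than in PP HEL pos cells by 1.21 ± 0.31 on the log2 scale (adjusted p = 0.0169), with overlapping groups of 5.05 to 8.92 and 8.26 to 20.5 CPM. That call was lost without PP HEL pos 399, BCL2 HEL pos 926 or BCL2 HEL pos 950 (adjusted p up to 0.088).

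**Figure D4:**
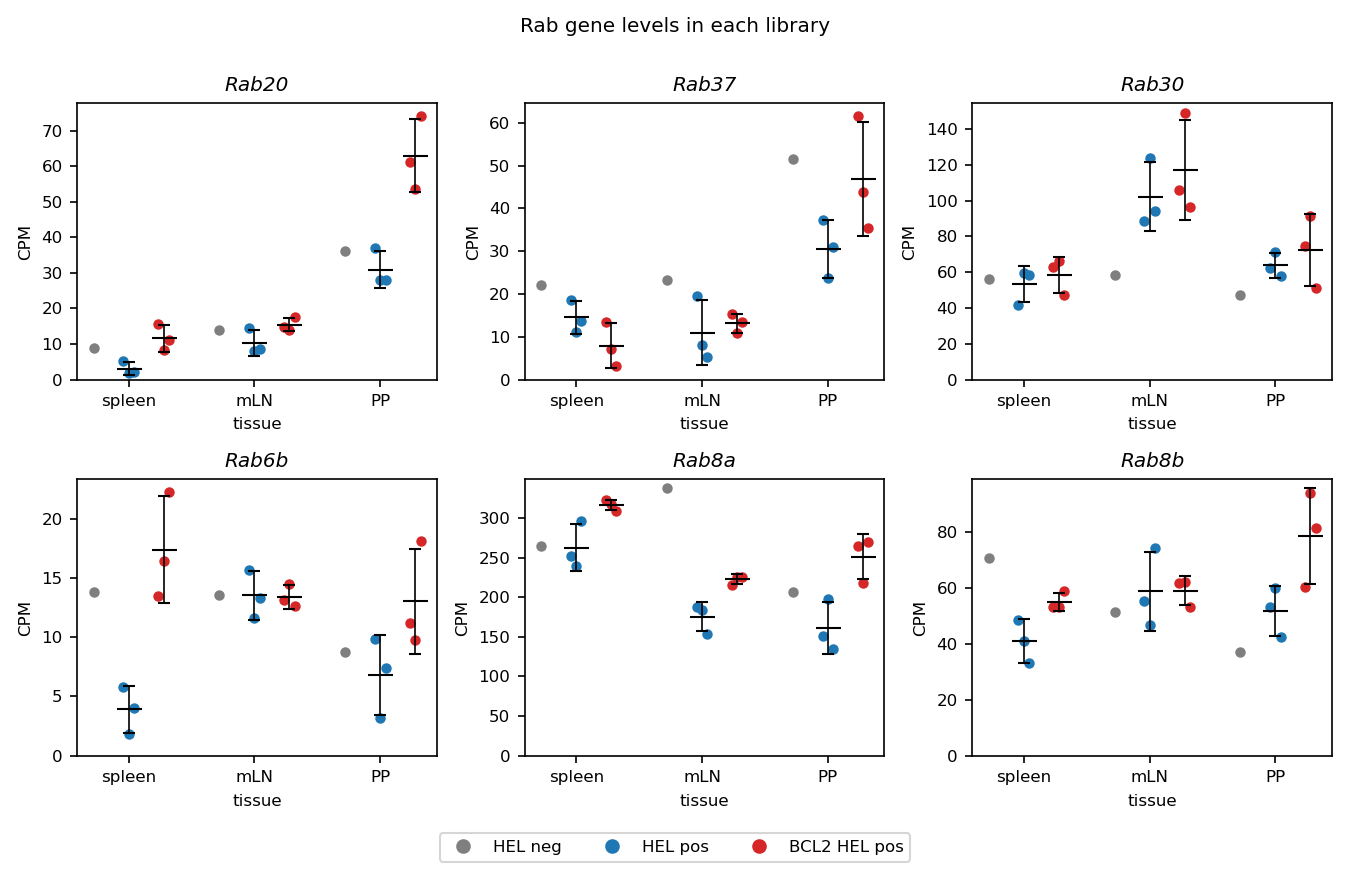
CPM of Rab20, Rab37, Rab30, Rab6b, Rab8a and Rab8b in each of the 21 libraries, by tissue and kind of cell. Points are libraries, and bars give the mean and SD of 3; HEL neg cells have 1 pool a tissue. Rab20 and Rab37 are highest in PP in every kind of cell, and Rab30 is highest in mLN in all 3, by a small margin between the HEL neg pools.

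Of the Rab genes of the endoplasmic reticulum and Golgi, Rab30 (chr7:92741603-92844535), which maintains Golgi structure, was higher in mLN. The HEL pos libraries Pool, 392 and 399 had 41.9, 59.6 and 58.7 CPM in spleen, 88.4, 124 and 94.4 CPM in mLN, and 62.1, 71.5 and 58 CPM in PP. All mLN libraries were above all others. The difference of mLN from spleen was 0.96 ± 0.21 (adjusted p = 0.00195), and that of PP from mLN -0.71 ± 0.21 (adjusted p = 0.0418). In BCL2 HEL pos cells the spleen had 62.8, 66 and 47 CPM and the mLN 106, 149 and 96.3 CPM, a difference of 0.99 ± 0.21 (adjusted p = 0.00439). Both mLN-spleen calls held in every fit without 1 library, at an adjusted p of at most 0.0484. The PP-mLN call was lost without PP Pool, PP 399, mLN 392 or mLN 399 (adjusted p up to 0.196). Spleen, mLN and PP pools of HEL neg cells had 56.1, 58.4 and 47.3 CPM. Of 5 plasma cell markers, 3 rose and 1 fell in mLN against spleen HEL pos cells, and 2 rose and 1 fell in BCL2 HEL pos cells. Derl3 rose by 2.22 and 2.72 and Sdc1 by 2.42 and 0.94 on the log2 scale, and Igj fell by 3.85 and 1.90. The 5 markers summed to 235 to 392 CPM in spleen and 383 to 426 CPM in mLN HEL pos cells, and to 348 to 564 and 346 to 421 CPM in BCL2 HEL pos cells. Of 8 T and NK cell markers, 3 rose and 1 fell in mLN against spleen HEL pos cells, and 7 had a positive log2 difference (median 1.316). Cd3e, Cd8a and Cd3d rose by 3.77, 3.26 and 1.71, and Cd2 fell by 1.40. The sum of the 8 was 293 to 378 CPM in spleen and 132 to 201 CPM in mLN. Most of it was Cd2, with means of 325 and 121 CPM, so it does not follow the markers that rose. Of the same 8, 0 rose and 1 fell in BCL2 HEL pos cells. The part of these cells in the Rab30 difference was not tested.

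Rab6b (chr9:103111787-103185276), the form of the Golgi GTPase Rab6 known from neurons, was low in spleen HEL pos cells. The libraries Pool, 392 and 399 had 5.82, 1.84 and 4.02 CPM there, 15.7, 11.6 and 13.3 CPM in mLN, and 9.88, 3.17 and 7.36 CPM in PP. Spleen and mLN did not overlap (1.78 ± 0.39, adjusted p = 0.00169). In BCL2 HEL pos cells spleen was not low: it had 13.5, 16.4 and 22.3 CPM, against 13.1, 14.5 and 12.6 CPM in mLN. The spleen difference between BCL2 HEL pos and HEL pos cells was 2.14 ± 0.39 (adjusted p = 0.00118), and both calls held whichever library was left out. The HEL neg pools had 13.8, 13.6 and 8.71 CPM in spleen, mLN and PP, so the spleen HEL pos group stood below the spleen HEL neg pool as well.

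Rab39, of the Golgi and phagosomes, fell in mLN HEL pos cells, which had 13.7, 7.45 and 6.12 CPM against 21.3, 19.2 and 18.5 CPM in spleen, without overlap. The difference was -1.10 ± 0.33 (adjusted p = 0.0189) and was lost without spleen Pool, mLN 392 or mLN 399 (adjusted p up to 0.102). It was higher in mLN BCL2 HEL pos than in mLN HEL pos cells by 1.04 ± 0.33 (adjusted p = 0.0461), with overlapping groups of 11.4 to 28.1 and 6.12 to 13.7 CPM. That call was lost in 4 of 6 fits without 1 library, with a p of up to 0.306. Rab33b, of Golgi traffic and autophagy, fell in PP against spleen HEL pos cells by 0.82 ± 0.23 (adjusted p = 0.018) and was higher in PP BCL2 HEL pos than in PP HEL pos cells by 0.80 ± 0.23 (adjusted p = 0.0303). The PP HEL pos library 399 was the lowest of all 21 at 10.5 CPM, and without it the values were -0.53 and 0.51, neither past the threshold (adjusted p = 0.0691 and 0.11). The first call was also lost without spleen HEL pos 399 (adjusted p = 0.089), and the second without PP BCL2 HEL pos 926 or 950 (adjusted p up to 0.102). Rab18, of the endoplasmic reticulum and lipid droplets, rose by 0.52 ± 0.12 between PP HEL pos and PP BCL2 HEL pos cells (adjusted p = 0.00725). The difference was 0.44 without PP Pool and 399, and the call was lost there. It was not called in a fit of only the compared libraries (adjusted p = 0.103). The other ER and Golgi genes tested, Rab1, Rab1b, Rab19, Rab2a, Rab2b, Rab43 and Rab6a, were called in none of the 9 comparisons by this test. Rab43, of the Golgi, came near: in HEL pos cells the libraries Pool, 392 and 399 had 52.2, 40 and 24.4 CPM in spleen, 78.4, 48.6 and 44.2 CPM in mLN and 44.4, 28.5 and 26.5 CPM in PP. The groups overlapped, though mLN was the highest tissue within each of the 3 library names. The difference of PP from mLN was -0.80 ± 0.26 (adjusted p = 0.0595 with edgeR). It was called by DESeq2 (adjusted p = 0.0371) and in edgeR without the low-count filter (adjusted p = 0.00104). With the library number as a block, edgeR called it too (adjusted p = 0.00477).

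Of the 6 genes of recycling that were tested, Rab4b and Rab14 were called in 1 comparison each. Rab4b fell in mLN HEL pos cells, with 76.7, 80.6 and 81.1 CPM against 109, 115 and 112 CPM in spleen, without overlap (-0.48 ± 0.14, adjusted p = 0.0192, or 0.0577 without mLN Pool). Rab14 rose by 0.42 ± 0.12 in PP BCL2 HEL pos over PP HEL pos cells (adjusted p = 0.0269), to 185, 218 and 227 CPM from 163, 161 and 147 CPM. Without PP HEL pos Pool and 399 it was 0.40 (adjusted p = 0.24), and it was also lost without PP HEL pos 399, BCL2 HEL pos 926 or BCL2 HEL pos 950 alone (adjusted p up to 0.0999). Rab10, Rab11a, Rab11b and Rab35 were not called. Of late endosomes and lysosomes, Rab7l1 (now Rab29), a partner of the kinase LRRK2, was highest in spleen HEL pos cells, with 42.9, 42 and 47.6 CPM. The mLN libraries had 25, 26.2 and 25.4 CPM and those of PP 21.2, 30.8 and 27 CPM. The difference was -0.77 ± 0.17 in mLN (adjusted p = 0.00185) and -0.75 ± 0.17 in PP (adjusted p = 0.00444, or 0.193 without PP Pool and 399). Spleen BCL2 HEL pos cells had less of it than spleen HEL pos cells, at 32.2, 26.7 and 26.3 CPM (-0.62 ± 0.17, adjusted p = 0.0248), and the HEL neg pool of spleen had 30.6 CPM. That last call was lost without spleen HEL pos 399, BCL2 HEL pos 926 or BCL2 HEL pos 950 (adjusted p up to 0.108). Rab7, which brings late endosomes to lysosomes, averaged 88.1 CPM and was called nowhere, and neither were Rab9, Rab12, Rab24 and Rab32.

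Rab44, a large Rab known from granulocytes and mast cells, was close to the limit of counting. It stood at 2.8, 2.87 and 1.93 CPM in PP HEL pos cells, 49 counts in all. Spleen HEL pos cells had 3 counts, a ratio of 18.9 (95% exact binomial interval 6.11 to 95, counting error only). PP BCL2 HEL pos cells had 0 counts, so that PP HEL pos cells were at least 22.8-fold higher, taking 3 counts over the group as the floor. Because the gene passed the filter only through the group where it is high, these are descriptions with no test. The PP HEL neg pool had 1.88 CPM. Granulocyte markers summed to 0.302 to 1.03 CPM in PP HEL pos libraries and 48.1 to 192 CPM in those of spleen.

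Rab17 and Rab25, GTPases of recycling in epithelial cells, were low throughout and not tested. Rab17 had 2.8 and 4.38 CPM in the PP HEL pos libraries Pool and 399, and 0 in PP HEL pos 392 and in the PP HEL neg pool. Rab25 had 3.42 CPM in the PP HEL neg pool, 3.16 CPM in PP HEL pos 399 and at most 1.05 CPM in the other libraries. Both genes were thus highest in libraries with epithelial or receptor transcripts. Rab27b, of secretory granules, had 9.99 CPM in PP HEL pos 399, 5.06 CPM in spleen HEL pos 399 and at most 0.854 CPM elsewhere, also in PP HEL pos Pool with its receptor transcripts. The part of these transcripts in the values was not tested.

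BCL2 HEL pos and HEL neg cells, and HEL pos and HEL neg cells, could be compared only over the 3 tissues together, with tissue as a covariate. Between HEL pos and HEL neg cells, 0 of 41 tested Rab genes were called by edgeR (8.68% of all genes were, 3.46% higher and 5.22% lower), 8 had an unadjusted p under 0.05, and DESeq2 called 2, Rab4b and Rab8a. Between BCL2 HEL pos and HEL neg cells 1 of 40 was higher and 0 lower (14.7% of all genes, 6.56% and 8.1% by direction). It was Rab31, of traffic between Golgi and endosomes, with 19.2, 30.5 and 31.3 CPM in the HEL neg pools and 31.7 to 55.5 CPM (median 44) in the 9 BCL2 HEL pos libraries. The difference was 0.69 ± 0.19 (adjusted p = 0.0209) and was lost without the spleen or the mLN pool (adjusted p = 0.142 and 0.0644). The median of the tested Rab genes was -0.065 and -0.016 in these comparisons, against 0.015 and 0.011 for all genes.

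Whether the tissue differences themselves changed with BCL2 was tested by interaction terms. For PP against spleen 0 Rab genes were called (0.00876% of all genes), with 3 at an unadjusted p under 0.05 and 0 by DESeq2. Without the low-count filter, edgeR called Rab37 there (1.54, adjusted p = 0.00658). For mLN against spleen 0 were called by edgeR (0.385% of all genes, 0.219% higher and 0.166% lower), with 3 at an unadjusted p under 0.05. Rab6b came closest there, at -2.17 ± 0.53 with an adjusted p of 0.081, and it was the 1 gene called by DESeq2 (adjusted p = 0.00917). In edgeR it was called without the low-count filter (adjusted p = 0.000979) and in a fit of only the compared libraries (adjusted p = 0.0236). It was also called with the library number as a block (adjusted p = 0.00696), a fit that called Rab20 as well (adjusted p = 0.0486). Over all alternatives of Rab6b the adjusted p ran from 0.000979 to 0.259. The larger PP-spleen difference of Rab20 in HEL pos cells is thus not shown to differ from that in BCL2 HEL pos cells.

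The partners of the Rab genes were taken from 4 lists: 8 genes of GDP dissociation and prenylation, 39 exchange factors, 38 GTPase-activating proteins and 51 effectors. In mLN against spleen HEL pos cells, 1 of 8, 2 of 35, 3 of 37 and 4 of 41 tested genes of these lists rose and 3, 6, 5 and 5 fell, in that order, where 12.9% of all genes rose and 11.5% fell. In PP against spleen HEL pos cells, 0, 2, 0 and 3 rose and 2, 3, 3 and 3 fell, where 7.94% of all genes rose and 7.43% fell. Between BCL2 HEL pos and HEL pos cells of spleen, 1, 3, 4 and 3 genes of the lists were higher and 0, 1, 0 and 4 lower (4.55% and 4.82% of all genes). In mLN 1, 4, 4 and 4 were higher and 0, 1, 0 and 2 lower (5.78% and 5.9%), and in PP 2, 3, 5 and 4 were higher and 0, 2, 0 and 2 lower (5.33% and 4.74%). The medians of the GTPase-activating proteins were 0.114, 0.187 and 0.087 in spleen, mLN and PP, against 0, -0.009 and -0.015 for all genes. Those of the effectors were 0.167, 0.077 and 0.203, and those of the exchange factors 0.001, 0.095 and -0.021. The genes of GDP dissociation and prenylation had 0.013, 0.087 and 0.217.

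Rilpl2, an effector that binds Rab8 and Rab10 and helps form the cilium, had among the clearest differences. The HEL pos libraries Pool, 392 and 399 had 78.7, 74.9 and 75.6 CPM in spleen, 223, 293 and 278 CPM in mLN, and 130, 164 and 175 CPM in PP. No tissue overlapped another, and mLN exceeded spleen by 1.81 ± 0.14 on the log2 scale (adjusted p = 1.38e-08) and PP spleen by 1.02 ± 0.14 (adjusted p = 4.83e-05). BCL2 HEL pos cells kept the order at lower levels: 34.7, 37 and 32.6 CPM in spleen, 94.6, 113 and 85.7 CPM in mLN and 71.8, 79.8 and 73.9 CPM in PP. Against HEL pos cells they differed by -1.12 ± 0.14 in spleen, -1.45 ± 0.14 in mLN and -1.05 ± 0.14 in PP (adjusted p = 5.37e-05, 1.37e-06 and 9.93e-05). These 5 calls held with any 1 library left out. The HEL neg pools had 70.3, 59.9 and 47.8 CPM in spleen, mLN and PP, with PP lowest.

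Hps4, a subunit of the exchange factor of Rab32 and Rab38, followed the same tissues. In HEL pos cells it rose by 1.47 ± 0.17 in mLN and 1.20 ± 0.17 in PP against spleen (adjusted p = 2.52e-06 and 7.79e-05), from 24.7 to 33.8 CPM in spleen to 72.5 to 93.7 and 54.9 to 78.6 CPM. In BCL2 HEL pos cells it rose by 0.93 ± 0.18 and 0.83 ± 0.17 (adjusted p = 0.00152 and 0.00467). The HEL neg pools had 28.2, 27.6 and 25.3 CPM of Hps4 in spleen, mLN and PP. Between BCL2 HEL pos and HEL pos cells Hps4 was called at -0.88 in mLN and -0.71 in PP. The PP call was lost without BCL2 HEL pos 922 and in a fit of only the compared libraries (edgeR adjusted p = 0.056 and 0.0707). The exchange factor Dennd3, which acts on Rab12, fell by 1.59 ± 0.17 in mLN against spleen HEL pos cells (adjusted p = 9.45e-07). The Rab5 exchange factor Rin3 was higher in BCL2 HEL pos than in HEL pos cells by 1.05 ± 0.17 in spleen, 0.94 ± 0.17 in mLN and 0.84 ± 0.18 in PP (adjusted p = 0.000507, 0.00123 and 0.00477). In PP that was lost without HEL pos Pool and 399 (adjusted p = 0.0749).

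Rabgap1l, a GTPase-activating protein, fell in mLN and PP against spleen HEL pos cells by 0.93 ± 0.12 and 0.83 ± 0.12 on the log2 scale (adjusted p = 7.9e-06 and 9.33e-05). The libraries Pool, 392 and 399 had 126, 166 and 171 CPM in spleen, 78.5, 78.7 and 82.1 CPM in mLN and 83.9, 95.8 and 81.5 CPM in PP. Tbc1d10c, which acts on Rab35 and is abundant in lymphocytes, fell by 1.03 ± 0.14 and 0.58 ± 0.14 (adjusted p = 1.84e-05 and 0.00766, the latter 0.184 without PP Pool and 399). Rabac1, which binds many prenylated Rabs at the Golgi, was higher in BCL2 HEL pos than in HEL pos cells in every tissue, by 1.07 ± 0.15 in spleen, 0.95 ± 0.15 in mLN and 0.99 ± 0.15 in PP (adjusted p = 0.000105, 0.000308 and 0.000391). The spleen libraries had 406, 390 and 340 CPM against 155, 172 and 222 CPM, without overlap. The HEL neg pools had 203, 263 and 206 CPM in spleen, mLN and PP.

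**Figure D5:**
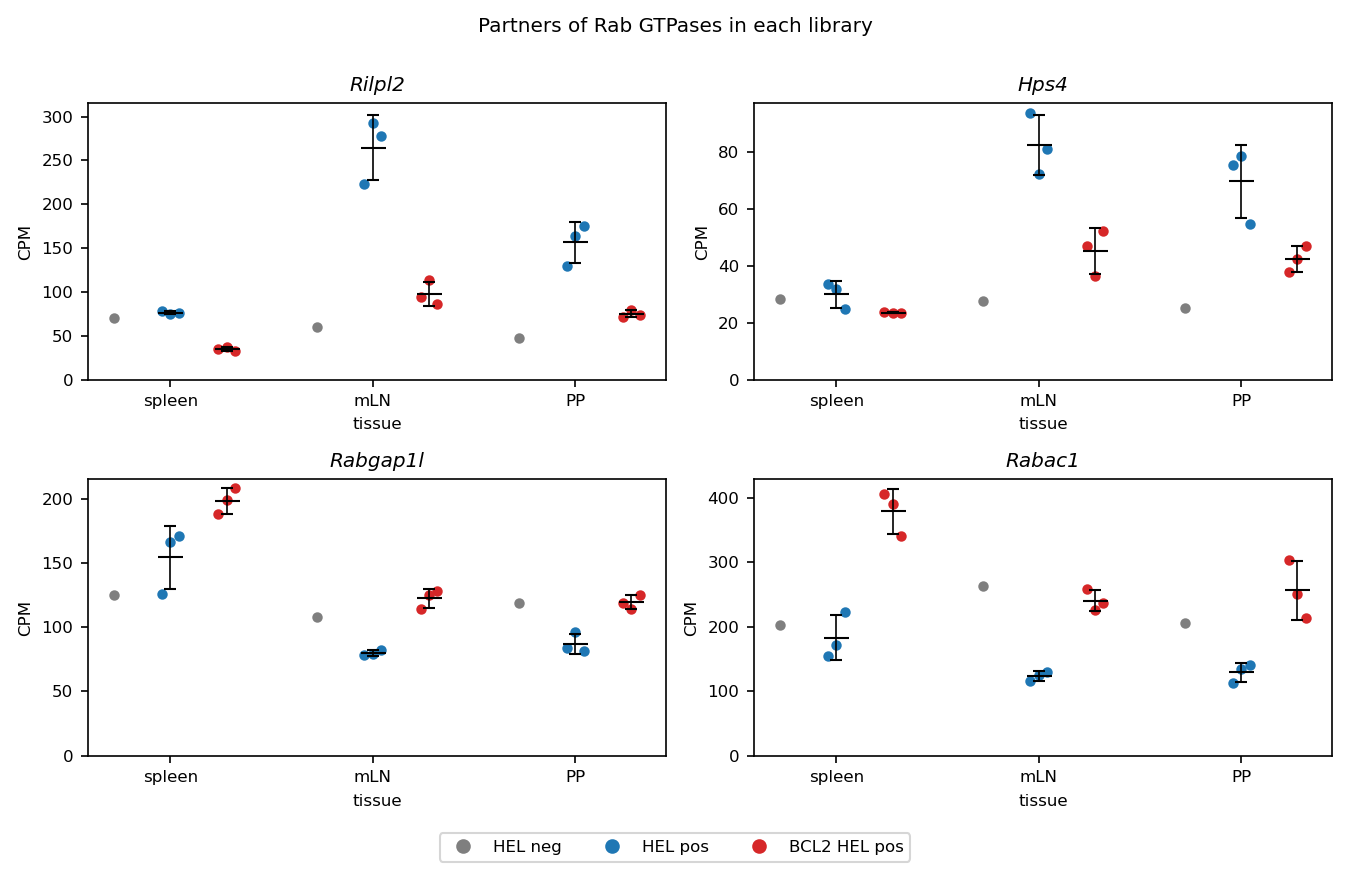
CPM of the Rab partners Rilpl2, Hps4, Rabgap1l and Rabac1 in each of the 21 libraries, by tissue and kind of cell. Points are libraries, and bars give the mean and SD of 3; Rilpl2 reaches 293 CPM in mLN HEL pos cells and is lower in BCL2 HEL pos cells of every tissue, where Rabac1 is higher than in HEL pos cells.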

How the data were processed

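The deposited table holds raw counts, whole numbers of reads for each gene. Build mm10 and the tools STAR, HTSeq and DESeq2 stand in the submitters' processing notes, without their settings. The labels' protocols name both TruSeq and Nextera XT kits and single-end reads of 50 bases, so strand was not used. The members and all gene lists were chosen with earlier results of these data known.

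Counts were filtered with filterByExpr, scaled with TMM and tested two-sided with edgeR 4.0.16 in R 4.3.3 (limma 3.58.1). One fit of 18 libraries in 6 groups gave 9 comparisons and 2 interactions (12 residual degrees of freedom, common biological variation 0.207 as a coefficient). HEL neg cells were compared in fits of 12 libraries with tissue as a covariate (8 residual degrees of freedom; 0.259 and 0.193; 11406 and 10987 genes). Coordinates and exon lengths (exons of protein-coding transcripts, basic set) came from GENCODE M21, in which all 57 genes were found. Per-library values are given for genes called with a log2 difference of at least 1 and no overlap, the 6 highest per kilobase, Rab17 and Rab25. Some others were added for comparison after their values were seen. At most 4 called partners a list and comparison could be named. Alternatives tried: DESeq2 1.42.0, DESeq2 size factors within edgeR, no filter, each library left out, only the libraries compared, the library number as a block, and leaving out the pooled HEL pos libraries or PP HEL pos 399 and Pool. Part of the B cell marker list is not reported here.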

Additional observations from a re-analysis of the deposited data

How the results depend on the processing

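Fold changes were recomputed for the called Rab genes and for the called results of 7 partners, besides Rab37 (PP against spleen HEL pos cells) and the Rab6b interaction, and none reversed. The number of called Rab genes moved by more than 1.5 times as follows. Without the low-count filter it was 7 for PP against mLN HEL pos cells (3 in the report), 5 for BCL2 HEL pos against HEL pos cells of spleen (3), 4 and 8 for HEL pos and BCL2 HEL pos against HEL neg cells (0 and 1), and 1 for each interaction (0), Rab37 with PP and Rab6b with mLN. DESeq2 gave 2 and 2 for the HEL neg comparisons and 1 for the mLN interaction. Fits of only the libraries compared gave 1 for PP against mLN HEL pos cells, 5 for mLN against spleen BCL2 HEL pos cells (3), 4 and 2 for BCL2 HEL pos against HEL pos cells of mLN and PP (2 and 8), and 1 for the mLN interaction. Without the pooled HEL pos libraries it was 3 for PP against spleen HEL pos cells (5), 4 for BCL2 HEL pos against HEL pos cells of mLN, and 3 for the HEL pos to HEL neg comparison. Without PP HEL pos 399 and Pool, which leaves 1 library in that group, assumed to vary like the others, it was 2 for PP against spleen, 1 for PP against mLN and 2 for BCL2 HEL pos against HEL pos cells of PP. With 1 library left out at a time the counts ran from 3 to 7, 7 to 10 and 1 to 5 for PP-spleen, mLN-spleen and PP-mLN HEL pos cells, from 2 to 4, 1 to 2 and 1 to 2 for the same in BCL2 HEL pos cells, from 2 to 3, 0 to 2 and 2 to 10 for BCL2 HEL pos against HEL pos cells of spleen, mLN and PP, 0 in both interactions, and from 0 to 4 and 0 to 6 against HEL neg cells. Libraries of 1 number correlated at 0.0204 to 0.307 across tissues in HEL pos cells and 0.0533 to 0.197 in BCL2 HEL pos cells, with 7 and 6 of 9 pairs over 0.1. Libraries of different numbers reached 0.101 and 0.0502, so in BCL2 HEL pos cells each library correlated best with its own number, a hint from the data only. The labels repeat each number in all 3 tissues, and Y-linked transcripts were low in every tissue for 392 and 399 only. As not every pair was over 0.1 and the labels name no shared source, the fits without the block were kept. They treat libraries of 1 number as independent. With that number as a replicate block, 9 genes were called for PP against spleen and 5 for PP against mLN HEL pos cells, 4 for PP against mLN BCL2 HEL pos cells (2), 2 for the mLN interaction and 1 for the HEL pos to HEL neg comparison. It called Rab37 for PP against spleen HEL pos cells (adjusted p = 0.00926), the Rab6b interaction (0.00696), and Rab43 for mLN against spleen and PP against mLN in HEL pos (0.0148 and 0.00477) and BCL2 HEL pos cells (0.038 and 0.0399). No paired analysis was possible because of unshared numbers for BCL2 HEL pos against HEL pos or HEL neg cells. The calls over all genes under each setting are not given here, so these shifts cannot be read as particular to the Rab genes. Their cause was not tested. Genes of a few CPM, such as Rab44, are limited by depth.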
